A study of Triticum aestivum with 14 samples.

Results

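VRN1 is represented in hexaploid wheat by 3 homoeologs, the copies of one gene on the A, B and D subgenomes. The copies were taken by their gene identifiers, 3 of the 100591 genes in the deposited table, and are called VRN1-5A, VRN1-5B and VRN1-5D by chromosome. The rule that names them uses no measured value, though it was written with earlier results of these data known. RNA from untreated wheat, labelled N50 with no explanation of the name, was sequenced in 14 libraries from the central spikelet, taken 21 days after the terminal spikelet stage. The whole-floret groups F1 and F5 had 3 libraries each, and of the organ groups, Lemma had 2 libraries (replicates 1 and 3), Anther 3 and Ovary 3. The study compared fertile with abortive florets, and lemma, anther and ovary within a fertile floret; the labels do not say which of F1 and F5 is the fertile one. Nothing in the labels says that replicates came from separate plants, so the p-values measure the spread between libraries, which may be technical.

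VRN1 encodes a MIKC-type MADS-box transcription factor of the APETALA1/FRUITFULL group. In wheat it is known as the gene that vernalization, a long exposure to cold, switches on, and its product promotes the change of the shoot apex from leaf to spike production. It lies in a circuit with VRN3, the wheat FLOWERING LOCUS T gene that carries the flowering signal from the leaf, and with VRN2, a repressor of flowering. In the young spike it acts together with related FRUITFULL-like genes in spikelet and spike development.

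VRN1-5A is TraesCS5A02G391700, named Vrn-A1 in the table and described there as MADS-box factor WM6. It lies on the minus strand of chromosome 5A, from 587411454 to 587423416, a span of 11963 bp. VRN1-5B is TraesCS5B02G396600, named Vrn-B1, on the minus strand of chromosome 5B from 573802883 to 573816070, a span of 13188 bp. VRN1-5D is TraesCS5D02G401500, which has neither name nor description in the table and was placed with the other two by its identifier alone. It lies on the minus strand of chromosome 5D from 467176609 to 467184508, a span of 7900 bp. The coordinates are those of the table, whose genome build is not given in the sources used here. Homoeologs are near-identical copies, and how reads matching more than one of them were assigned is not given in the sources used here, so the split of reads among the copies is uncertain.

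The libraries held 75016595 to 105526441 counts each, and the homoeologs were deeply covered, with 6625 to 15400 counts for VRN1-5A, 3224 to 8998 for VRN1-5B and 2397 to 6140 for VRN1-5D. No replicate pair agreed within sampling noise. The organ labels were checked with lists of genes picked by annotation text, mostly gene ontology, and compared by summed FPKM (fragments scaled to transcript length and to the library total). A list of 460 green-tissue genes summed to 31023 to 35500 in Lemma and to 988 to 1677 in Anther and Ovary. The 376 pollen and anther genes summed to 2915 to 3027 in Anther against 981 to 1505 elsewhere, and the 60 ovary and ovule genes to 487 to 555 in Ovary against 214 to 412 elsewhere. The 649 genes of dividing tissue, chiefly histones and DNA replication, were highest in Ovary, with sums of 20773 to 26835, against 7316 to 10177 in F1. Their sums were 2607 to 2678 in Anther, and lower still in F5 (1740 to 1830) and Lemma (1253 to 1437). F1 replicate 1 stood apart from the other F1 libraries: its correlation with them over genes was 0.870 and 0.882, against 0.930 between replicates 2 and 3, and its green-tissue sum was 32109, the F1 range being 14772 to 32109. Ovary replicate 3 also stood apart, with correlations of 0.924 and 0.941 with the other Ovary libraries against 0.963 between those, and it holds the highest VRN1-5A value. Of the VRN1 fold changes that use these libraries, all kept their direction and their side of the threshold without F1 replicate 1, and without Ovary replicate 3 all but VRN1-5A in F1 against Ovary did.

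All 3 homoeologs were detected in every library, at levels above most genes. VRN1-5A was higher than 98.1 to 99.4% of the genes in a library, VRN1-5B than 96.3 to 98.7% and VRN1-5D than 94.3 to 97.6%. In FPKM, VRN1-5A measured 59.0, 58.7 and 54.0 in the F1 libraries and 84.6, 69.5 and 62.9 in F5. It measured 106 and 96.9 in Lemma, 70.4, 55.6 and 49.5 in Anther, and 78.8, 84.5 and 106 in Ovary. Every F5 library lay above every F1 library, both Lemma libraries lay above all Anther libraries, and Ovary overlapped Lemma.

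VRN1-5B measured 32.9, 36.3 and 33.6 FPKM in F1 and 57.8, 52.3 and 42.4 in F5. Its FPKM was 55.0 and 50.2 in Lemma, 31.6, 27.6 and 29.6 in Anther, and 48.1, 49.7 and 51.5 in Ovary. F5, Lemma and Ovary overlapped, F1 lay below all 3, and Anther lay below F1. The D copy was the lowest of the homoeologs in each library. VRN1-5D measured 23.8, 24.7 and 22.3 FPKM in F1 and 36.8, 31.3 and 28.3 in F5. Its FPKM was 37.5 and 33.2 in Lemma, 24.9, 19.1 and 18.2 in Anther, and 28.3, 31.4 and 33.9 in Ovary. As for VRN1-5B, the libraries of F5, Lemma and Ovary overlapped and lay above all F1 libraries, while F1 and Anther overlapped each other.

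**Figure D1:**
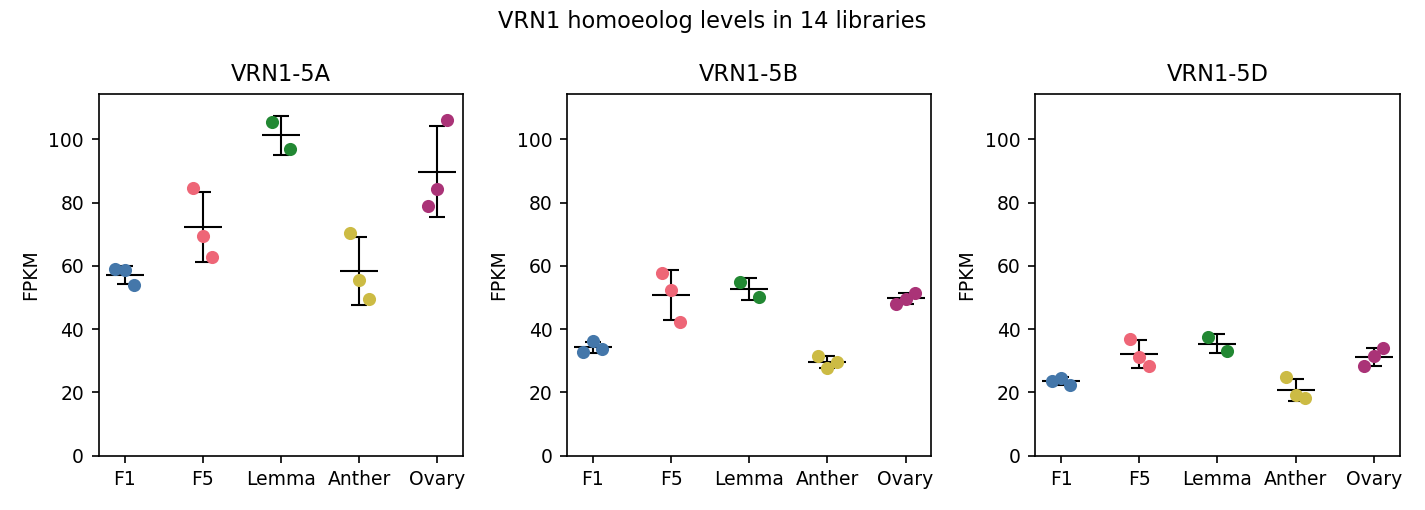
FPKM (vertical axis, from 0) of each VRN1 homoeolog in the 14 libraries by group, 1 point per library, with bars for the mean and SD. In every panel the F5 points lie above the F1 points and the Lemma points above the Anther points; VRN1-5A reaches 106 FPKM and VRN1-5D stays at or below 37.5.

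Ranked by mean FPKM, VRN1-5A was highest in Lemma (101 ± 6.19, SD, n = 2), followed by Ovary (89.8 ± 14.4, n = 3), F5 (72.3 ± 11.1, n = 3), Anther (58.5 ± 10.7, n = 3) and F1 (57.2 ± 2.79, n = 3). Each group overlapped its neighbour in that order. VRN1-5B ranked Lemma (52.6 ± 3.41), F5 (50.8 ± 7.81), Ovary (49.7 ± 1.70), F1 (34.3 ± 1.81) and Anther (29.6 ± 2.01), with gaps between Ovary and F1 and between F1 and Anther. VRN1-5D ranked in the same way, from 35.3 ± 3.02 in Lemma through F5 (32.1 ± 4.31), Ovary (31.2 ± 2.84) and F1 (23.6 ± 1.21) to 20.7 ± 3.60 in Anther, and the only gap lay between Ovary and F1. The order depended in part on the scaling of the libraries. In CPM, counts scaled to the library total, after TMM scaling, which sets the bulk of genes level between libraries, all 3 homoeologs ranked Lemma, F5, Ovary, Anther, F1. For VRN1-5A this exchanged F5 and Ovary, at means of 119 and 116 CPM, and for the B and D copies it exchanged F1 and Anther. The TMM factors ran from 0.775 to 0.791 in Lemma and from 1.18 to 1.22 in Ovary, so on this scale the distance between those groups is wider than in FPKM. In bulk tissue, fewer cells of a type and less RNA per cell cannot be told apart at any of these levels.

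The summed FPKM of the homoeologs was 189 ± 12.6 in Lemma, 171 ± 18.7 in Ovary, 155 ± 22.9 in F5, 115 ± 4.90 in F1 and 109 ± 15.8 in Anther. The F5 sums, 134 to 179, did not overlap the F1 sums, 110 to 120. In FPKM, the group means of VRN1 lay closer together than those of most genes past the same minimum level. Its highest group mean FPKM was 1.77 times its lowest for VRN1-5A, 1.78 times for VRN1-5B and 1.70 times for VRN1-5D. Among the 35328 genes with at least 5 FPKM in their highest group, the median of this ratio was 4.74, and 6.55 to 7.97% of genes had a smaller ratio than one of the homoeologs. On the TMM scale the VRN1 group means lay further apart. From Lemma to F1 they ran from 195 to 77.1 CPM for VRN1-5A, 99.2 to 45.2 for VRN1-5B and 71.5 to 33.4 for VRN1-5D. The ratio was not computed over all genes on that scale.

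Between whole florets, all 3 homoeologs were higher in F5 than in F1, which are different florets of the central spikelet. The dividing-tissue genes were lower in F5, at 1740 to 1830 summed FPKM against 7316 to 10177 in F1; their part in the VRN1 difference was not tested. With edgeR's quasi-likelihood test on counts and Benjamini-Hochberg adjustment over 70221 genes, VRN1-5A rose by 0.60 on the log2 scale (SE 0.160, adjusted p = 0.0270), a fold of 1.51. VRN1-5B rose by 0.83 (SE 0.149, edgeR adjusted p = 0.00713), a fold of 1.78. VRN1-5D rose by 0.71 (SE 0.144, edgeR adjusted p = 0.0109), a fold of 1.63. Thus 3 of 3 passed an adjusted p under 0.05, as 35.2% of all tested genes did, and 0 of 3 also reached the 2-fold change that a call here requires, against 24.1% of all genes. The sizes were ordinary for this comparison: 46.0%, 57.9% and 52.0% of genes changed less than VRN1-5A, VRN1-5B and VRN1-5D.

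The rise of VRN1-5A was the least stable of these. Its adjusted p was 0.0800, 0.0807, 0.0799 and 0.0580 without F1 replicate 2, F1 replicate 3, F5 replicate 1 and F5 replicate 2 in turn, and with libraries scaled by their totals alone it was 0.168 at a log2 fold change of 0.29. Under that scaling VRN1-5D missed the threshold as well (0.39, edgeR adjusted p = 0.0555). VRN1-5B passed under every alternative run, at log2 fold changes of 0.52 to 0.94. Without F1 replicate 1, the library that stood apart, the log2 fold changes were 0.68, 0.85 and 0.77 for the A, B and D copies, and all 3 passed.

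Among the organs, the homoeologs were lower in Anther than in Lemma. In an edgeR fit of the 8 organ libraries over 76348 genes, VRN1-5A fell by 1.03 on the log2 scale (SE 0.170, adjusted p = 0.00104), a fold of 2.05. VRN1-5B fell by 1.07 (SE 0.109, edgeR adjusted p = 7.38e-05) and VRN1-5D by 1.01 (SE 0.150, edgeR adjusted p = 0.000597), folds of 2.10 and 2.01. All 3 were called lower, where 51.9% of all genes were called and 26.7% were called lower. The folds sit at the 2-fold limit: of 15 alternatives, each of which kept the adjusted p under 0.05, VRN1-5A reached 2-fold in 5, VRN1-5B in 11 and VRN1-5D in 5. The green-tissue genes moved in the same direction, from at least 31023 summed FPKM in Lemma to at most 1677 in Anther; their part in the VRN1 difference was not tested.

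Ovary was also below Lemma in the same fit. The log2 fold change was -0.80 for VRN1-5A (adjusted p = 0.00492), -0.70 for VRN1-5B (adjusted p = 0.000974) and -0.80 for VRN1-5D (adjusted p = 0.00255), all by edgeR. No homoeolog reached 2-fold (0 of 3, against 42.7% of genes called), and 3 of 3 passed the adjusted p alone, against 54.4%. The dividing-tissue genes differed between the same groups, at 20773 to 26835 summed FPKM in Ovary and 1253 to 1437 in Lemma, as did the green-tissue genes, at 988 to 1110 and 31023 to 35500; their part in the VRN1 difference was not tested. The VRN1 difference rested on the scaling: with library totals it was -0.13, -0.041 and -0.14, with adjusted p from 0.475 to 0.785, and that scaling put the median log2 fold change of all genes at 0.71, against 0.05 with TMM. Anther and Ovary differed less. VRN1-5B fell by 0.37 in Anther against Ovary (edgeR adjusted p = 0.0128), while VRN1-5A (-0.24, adjusted p = 0.219) and VRN1-5D (-0.21, adjusted p = 0.218) missed the threshold, 1 of 3 against 58% of genes; at 2-fold the count was 0 of 3 against 43.5%. Here library totals gave larger differences, -0.63 for VRN1-5A and -0.60 for VRN1-5D, both with adjusted p under 0.05. Without Anther replicate 2, VRN1-5B missed the threshold in this comparison (-0.31, edgeR adjusted p = 0.0580).

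Whole florets were set against organs in 1 edgeR fit of all 14 libraries over 79955 genes. F1 was below Lemma for each copy, with log2 fold changes of -1.34 for VRN1-5A (adjusted p = 0.000116), -1.14 for VRN1-5B (adjusted p = 5.21e-05) and -1.10 for VRN1-5D (adjusted p = 0.000176). All 3 were called lower at 2-fold, where 29.3% of genes were called and 11.7% were called lower. With TMM, 61.4%, 55.8% and 54.7% of genes changed less than VRN1-5A, VRN1-5B and VRN1-5D in this comparison. With library totals the same differences were -0.76, -0.56 and -0.52, under 2-fold but still past the adjusted p, which 40.2% of genes passed with TMM. F5 lay closer to Lemma: VRN1-5A fell by 0.71 (edgeR adjusted p = 0.00739), and VRN1-5B (-0.28, adjusted p = 0.115) and VRN1-5D (-0.37, adjusted p = 0.0785) missed the threshold. That is 1 of 3 at the adjusted p against 34.6% of genes, and 0 of 3 at 2-fold against 23.9%. Without F5 replicate 1 the B and D copies passed as well (-0.39 and -0.48).

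Against Anther, F5 was higher for VRN1-5B (0.74, edgeR adjusted p = 0.000146) and VRN1-5D (0.60, adjusted p = 0.00227), and VRN1-5A measured 0.27 (adjusted p = 0.140), or 0.41 without Anther replicate 1 (adjusted p = 0.0484). None of the homoeologs reached 2-fold, 0 of 3 against 50.4% of genes, and 2 of 3 passed the adjusted p, against 63.4%. For F1 against Anther, the log2 fold changes were -0.35, -0.11 and -0.14 for the A, B and D copies (edgeR adjusted p = 0.0714, 0.426 and 0.411), 0 of 3 at 2-fold where 43.2% of genes were called and 0 of 3 at the adjusted p alone, where 57% passed. The B and D values changed sign with library totals, and VRN1-5A passed without Anther replicate 3 (-0.44, edgeR adjusted p = 0.0493). Against Ovary, F1 was lower for VRN1-5A (-0.59, edgeR adjusted p = 0.0118) and VRN1-5B (-0.48, adjusted p = 0.00736), with VRN1-5D at -0.35 (adjusted p = 0.0678). That is 2 of 3 at the adjusted p, against 33.1%, and 0 of 3 at 2-fold, against 22.3%. Without Ovary replicate 3, VRN1-5A missed the threshold (-0.47, edgeR adjusted p = 0.0541). For F5 against Ovary the values were 0.03 (adjusted p = 0.889), 0.37 (adjusted p = 0.0168) and 0.38 (adjusted p = 0.0303), 2 of 3 at the adjusted p against 55.5% and 0 of 3 at 2-fold against 42.3%. With library totals the B and D copies were at 0.00061 and 0.011 in this comparison. Neither passed without F5 replicate 1 (0.26 and 0.27, edgeR adjusted p = 0.0788 and 0.131), and VRN1-5D also missed the threshold without Ovary replicate 1 (0.34) or Ovary replicate 2 (0.38).

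**Figure D2:**
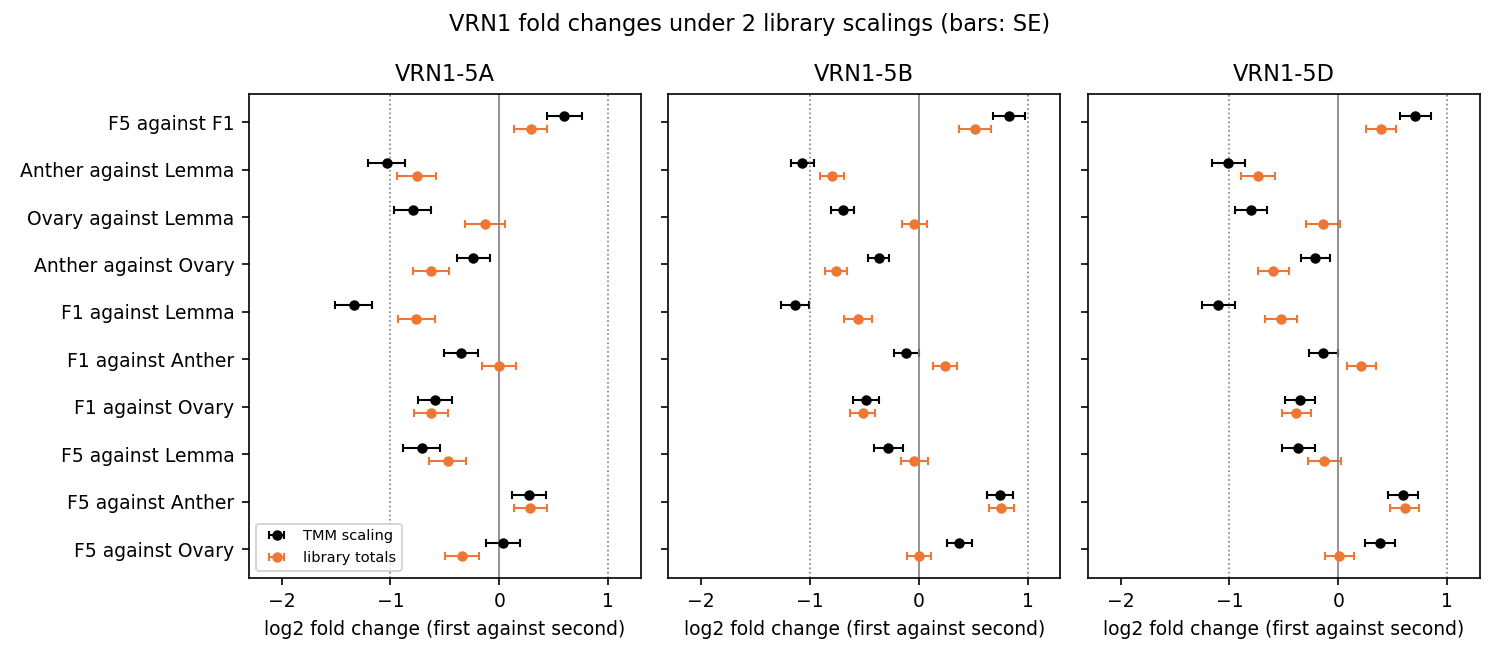
Log2 fold changes (horizontal axis, first group against second) of each homoeolog in 10 group comparisons, with bars for the SE, from edgeR with TMM scaling (black) and with library totals (orange); dotted lines mark 2-fold. VRN1-5B in F5 against F1 lies at 0.83 with TMM and at 0.52 with library totals, and the Ovary against Lemma points move close to 0 with library totals.

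The 3 homoeologs contributed unequally, and in the same order in 14 of 14 libraries: A, then B, then D. Of the summed FPKM, VRN1-5A made up 51.0, 49.0 and 49.1% in F1 and 47.2, 45.4 and 47.1% in F5. Its share was 53.3 and 53.7% in Lemma, 55.5, 54.4 and 50.8% in Anther, and 50.8, 51.0 and 55.4% in Ovary. The F5 libraries, at 45.4 to 47.2%, lay below the other 11, at 49.0 to 55.5%. Over all genes, the subgenomes were nearly even, with 33.6 to 34.5% of summed FPKM on A, 30.8 to 33.0% on B and 33.3 to 34.9% on D. These sums do not show whether the VRN1 split is unusual, as the shares of other homoeolog sets were not computed.

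VRN1-5B held 28.4, 30.4 and 30.6% of the summed FPKM in F1 and 32.3, 34.2 and 31.7% in F5. It held 27.8 and 27.9% in Lemma, 24.9, 27.0 and 30.4% in Anther, and 31.0, 30.0 and 26.9% in Ovary. F5 lay above the other 11 libraries, whose range was 24.9 to 31.0%. For VRN1-5D the shares of summed FPKM were 20.5, 20.6 and 20.3% (F1), 20.5, 20.4 and 21.2% (F5), 18.9 and 18.4% (Lemma), 19.6, 18.7 and 18.7% (Anther) and 18.2, 19.0 and 17.7% (Ovary). Its 6 floret libraries, at 20.3 to 21.2%, did not overlap the 8 organ libraries, at 17.7 to 19.6%. Neither this split nor that of F5 from the other 11 libraries was tested. How many other homoeolog sets separate in these ways was not computed.

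In group means, the VRN1-5A share ran from 46.6 ± 1.00% in F5 to 53.6 ± 2.43% in Anther. An exact permutation test over all 1401400 divisions of the libraries into the 5 groups gave an adjusted p of 0.00934 for VRN1-5A. The VRN1-5D share ran from 18.3 ± 0.625% in Ovary to 20.7 ± 0.403% in F5 (exact permutation test, adjusted p = 0.00270). The VRN1-5B share ran from 27.4 ± 2.79% in Anther to 32.7 ± 1.27% in F5 and lay at the threshold (exact permutation test, adjusted p = 0.0490). It passed in 3 of 14 fits that each left out 1 library, and missed it with shares of counts (exact permutation adjusted p = 0.0507). The adjustment covered the 3 shares, which sum to 100% and are not independent. On log2 ratios between copies, the exact permutation test gave adjusted p = 0.0343 for A to B and 0.00178 for A to D. For B to D it gave 0.349, so the D share is not shown to change apart from the B copy. Counting error alone gives 95% Wilson intervals of 0.459 to 0.882 percentage points to either side of a share, and no error of read assignment is in them. The group means spanned 6.99 points for VRN1-5A, 5.29 for VRN1-5B and 2.39 for VRN1-5D.

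**Figure D3:**
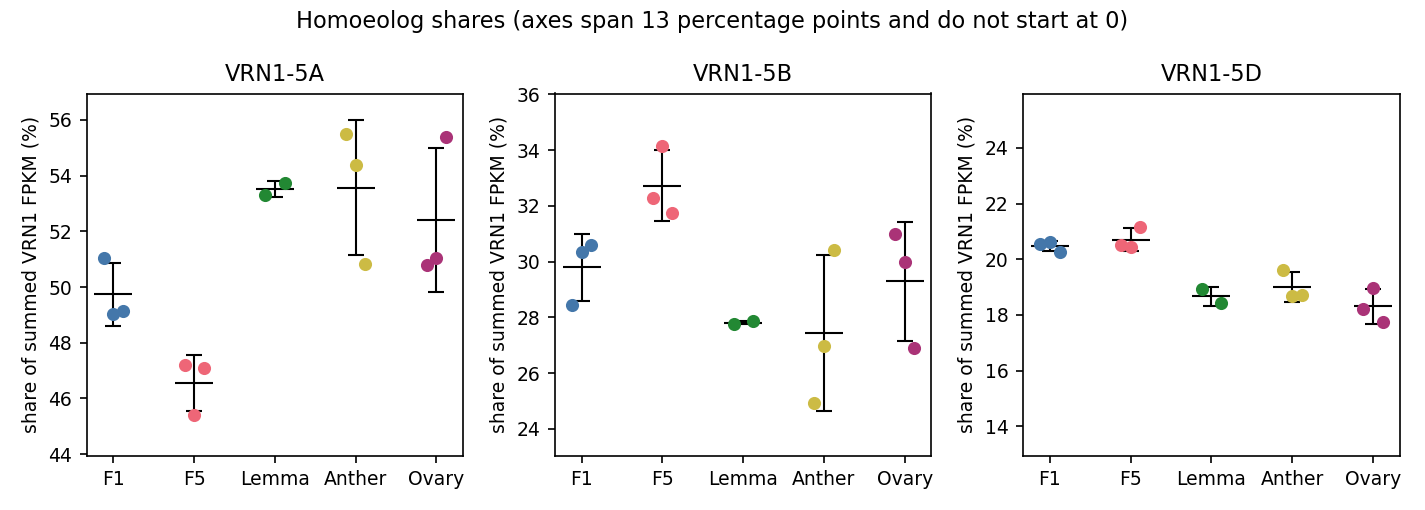
Share of each homoeolog in the summed VRN1 FPKM (vertical axis, percent, not starting at 0) in the 14 libraries by group, 1 point per library, with bars for the mean and SD. The A copy holds 45.4 to 55.5% in every library, F5 has the lowest A and the highest B shares, and the D share is 20.3 to 21.2% in florets and 17.7 to 19.6% in organs.

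Across the 14 libraries the homoeologs varied together. Pearson's r of log2(FPKM + 1) was 0.957 between VRN1-5B and VRN1-5D, 0.900 between VRN1-5A and VRN1-5D and 0.835 between VRN1-5A and VRN1-5B. The libraries share their groups and their scaling to totals, so these values are given as a description. Reads matching more than 1 copy may also have been divided among the copies. The part of read assignment in these values and in the ranks below was not tested. Of the 35327 other genes at a level of at least 5 FPKM, 0 were more like VRN1-5B than VRN1-5D was, 12 were more like VRN1-5A than VRN1-5B was, and 77 were more like VRN1-5B than VRN1-5A was.

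The other MADS-box genes, a family to which many floral organ identity genes of the ABC model belong, were taken from the table by name or description. The list held 27 genes beside VRN1-5A and VRN1-5B, and VRN1-5D is absent from it for want of a description. Only 15.2% of all genes have a name or description, so the list may hold only part of the family. In F5 against F1, 3 of the 27 were called higher and 12 lower, at a median log2 fold change of -1.47, beside -0.05 over all genes, of which 10.4% were called higher and 13.7% lower. In Anther against Lemma 10 were higher and 9 lower, beside 25.2% and 26.7% of all genes. In Ovary against Lemma the counts were 13 and 6 (all genes 20.4% and 22.4%), and in Anther against Ovary 3 and 10 (all genes 21.9% and 21.7%). The library scaling moved these splits over all genes, as given with the other effects of processing. Of the 23 with at least 5 FPKM in their highest group, 0 had a smaller ratio of highest to lowest group mean FPKM than a VRN1 homoeolog. Their median ratio was 22.0, and the lowest was 2.83, for WM21A (TraesCS4D02G341700).

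Several named family members show how wide that spread was. WM20 (TraesCS7D02G120500), at 64.6 ± 26.1 FPKM in F1, 66.6 ± 8.25 in F5 and 89.1 ± 5.19 in Lemma, was at 0.156 ± 0.114 in Anther and 6.15 ± 2.11 in Ovary. An APETALA3-like gene (TraesCS7D02G380300), of the class that specifies stamens and lodicules, measured 55.3 FPKM in F1, 4.39 in F5, 24.5 in Lemma, 144 in Anther and 121 in Ovary. It fell by 3.38 on the log2 scale in F5 against F1 (edgeR adjusted p = 0.00103). WAG-2m (TraesCS3D02G140200), an AGAMOUS-like gene of the class that specifies stamens and carpels, was at 75.2 FPKM in Anther and 21.8 in Ovary against 2.05 in Lemma. In Anther against Lemma it rose by 4.94 (edgeR adjusted p = 1.65e-06), where the VRN1 homoeologs fell by 1.01 to 1.07. WM4 (TraesCS4D02G245200) was at 4.47 FPKM in F1 and 49.2 in F5, a log2 rise of 3.72 (SE 0.18, edgeR adjusted p = 0.000218), beside 0.60 to 0.83 for VRN1. WM27A was listed at 0 in Lemma and Anther.

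**Figure D4:**
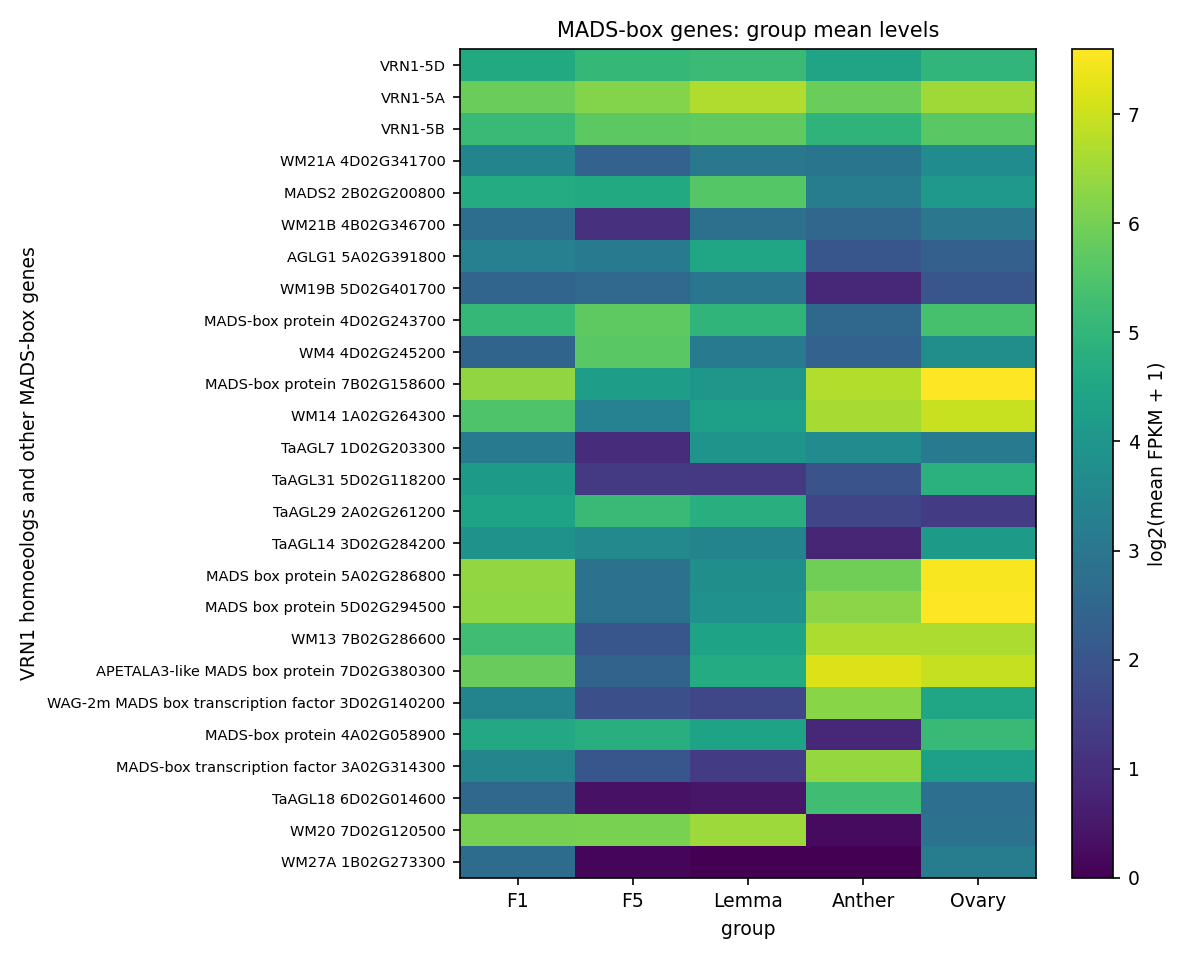
Group mean level, as log2(mean FPKM + 1), of the VRN1 homoeologs and 23 other MADS-box genes with at least 5 FPKM in their highest group, ordered by the ratio of highest to lowest group mean. The VRN1 rows at the top change little from group to group, WM20 drops in Anther and Ovary, and WM27A is listed at 0 in Lemma and Anther.

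The flowering-time list held 162 other genes, 142 of the full list coming from ontology text alone. In F5 against F1, 18 of 130 tested were called higher and 8 lower, 20% in all beside 24.1% over all genes, and their median log2 fold change was 0.10. Among the 135 tested in the organs, 15 were higher and 46 lower in Anther against Lemma, 45.2% called beside 51.9% of all genes. By direction, 25.2% of all genes were called higher there and 26.7% lower. The counts were 22 and 33 in Ovary against Lemma (40.7% beside 42.7%) and 20 and 36 in Anther against Ovary (41.5% beside 43.5%). With both directions pooled, all were near or below the share over all genes. By direction, all genes were called higher and lower in 20.4% and 22.4% for Ovary against Lemma, and 21.9% and 21.7% for Anther against Ovary. More list members were lower than higher in each organ comparison, as were all genes in Anther against Lemma and in Ovary against Lemma. The organ comparisons share libraries, and library scaling moved the split over all genes in Ovary against Lemma. The gene closest to VRN1 in the circuit was vrn-B3 (TraesCS7B02G013100), the B copy of VRN3, described as Flowering locus T.

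In FPKM, vrn-B3 measured 21.6, 57.5 and 99.7 in F1, 43.3, 77.4 and 90.1 in F5, and 68.7 and 59.2 in Lemma. It measured 0.219, 0.0989 and 0.0314 in Anther and 1.62, 12.4 and 0.541 in Ovary. Thus it was near 0 in each Anther library, in which VRN1-5A measured at least 49.5 FPKM. In Anther against Lemma, vrn-B3 fell by 9.33 on the log2 scale (SE 1.4, edgeR adjusted p = 0.000773), and in F5 against F1 it measured 0.53 (adjusted p = 0.460). Early flowering 3-B1 (TraesCS1B02G477400), of the clock complex that represses flowering, rose by 0.79 on the log2 scale in F5 against F1 (edgeR adjusted p = 0.00589) but stayed under 2-fold.

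A described MADS-box gene lies within 3 genes of VRN1 on chromosomes 5A and 5D. AGLG1 (TraesCS5A02G391800), a SEPALLATA-like gene, is the next gene on 5A, at a gap of 594417 bp. Its mean FPKM was 8.98 in F1, 7.60 in F5, 21.7 in Lemma, 3.06 in Anther and 4.01 in Ovary. AGLG1 fell by 3.07 on the log2 scale in Anther against Lemma (edgeR adjusted p = 2.91e-05), and in F5 against F1 it measured 0.02 (adjusted p = 0.953). WM19B (TraesCS5D02G401700) lies 233360 bp from VRN1-5D and fell by 3.36 in Anther against Lemma (edgeR adjusted p = 8.8e-06). Both neighbours thus changed in the direction of VRN1 between these organs, by more than its 1.01 to 1.07, where 26.7% of all genes were called lower. The undescribed genes within 3 of VRN1 went either way. From Lemma to Anther, mean FPKM rose from 3.63 to 7.28 for TraesCS5A02G391600 and fell from 7.97 to 0.219 for TraesCS5B02G396700. The latter is the next gene to VRN1-5B, on the same side and strand as AGLG1 beside VRN1-5A. Without a name or description, whether it is a MADS-box gene was not determined.

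Likeness of pattern was measured as Pearson's r over the 14 libraries between a gene's log2(FPKM + 1) and the mean of the homoeologs', among 35325 genes. The most alike described gene was Heat shock factor C2a (TraesCS7B02G272500), a transcription factor of the heat-stress family, at r = 0.92. Its mean FPKM was 1.68 in F1, 4.44 in F5, 9.04 in Lemma, 0.536 in Anther and 8.32 in Ovary, a wider range than that of VRN1. Of the undescribed genes, TraesCS1A02G162800 (0.92) and TraesCS4B02G394700 (0.90) were the most alike. The next described genes were an Auxin response factor gene (TraesCS2B02G326400, 0.84), an Aldehyde dehydrogenase gene (TraesCS4D02G094500, 0.83), a katanin p80 gene (TraesCS3B02G349000, 0.81) and TaAP2-D (TraesCS2D02G515800, 0.81). The least alike were 5 genes for the proteolipid subunit of the V-type proton ATPase, at r from -0.90 to -0.94. Among the listed MADS-box genes, the values ran from -0.70 for TaAGL18 (TraesCS6D02G014600) to 0.68 for a MADS-box protein gene on chromosome 4D (TraesCS4D02G243700).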

How the data were processed

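RNA-seq of 14 wheat libraries was deposited by the authors as 1 table of read counts and FPKM values per gene, with names, descriptions, ontology text and coordinates. Per the submitters' processing notes, Bowtie 0.12.2 and the mouse build mm8 were used; mm8 cannot hold wheat genes, so the sources used here name neither the wheat build nor the role of the aligner. How multiply mapped reads were counted, and whether strand was used, is not given either. Deposited counts were tested with edgeR 4.0.16 (R 4.3.3; TMM, filterByExpr, robust quasi-likelihood), with Benjamini-Hochberg adjustment over all genes tested. A call needs an adjusted p under 0.05 and at least a 2-fold change. F5 and F1 were fitted alone, the organs in 1 fit, and florets against organs in a fit of all libraries. The groups in these comparisons share libraries.

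Shares were computed from the authors' FPKM. They were tested with a two-sided exact permutation test of the between-group sum of squares, run by full enumeration. SciPy 1.17.1 gave the adjustment and the Wilson intervals. Alternatives used DESeq2 1.42.0, limma 3.58.1 on log2(FPKM + 1), which keeps genes with at least 1 FPKM in 2 libraries, and other scalings; that with library totals was chosen after seeing the data. The edgeR procedure was tested on simulated data. Named genes were, for likeness, the described genes with the highest r and the 5 with the lowest, at no less than 5 FPKM in the highest group, and, for the lists, known wheat genes and those with the highest levels or largest changes. The homoeologs and lists were chosen with earlier results of these data known. Replicate numbers were not used as a block: of 26 pairs of libraries with the same number, 7 had deviations correlated above 0.1. Intervals on shares cover counting error only.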

Additional observations from a re-analysis of the deposited data

How the results depend on the processing

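Over the alternatives, 377 of 447 recomputed VRN1 fold changes kept their direction and side of adjusted p 0.05, 32 lost the threshold, 25 gained it and 13 changed sign; the causes were not tested. Each homoeolog had at least 2397 counts in every library, and groups held 2 or 3 libraries. The replicate block left 30 of 30 fold changes on the same side (F5 against F1: 0.59, 0.82 and 0.70). In F5 against F1, VRN1-5A missed the threshold with upper-quartile scaling (0.47), library totals (0.29) and limma (0.32; 0.33 with a pseudocount of 0.1), and VRN1-5D with library totals (0.39). Ovary against Lemma missed it with library totals (-0.13, -0.041 and -0.14 for A, B and D) and limma (-0.18, -0.079 and -0.18; -0.18, -0.080 and -0.18 with 0.1). Anther against Ovary passed for the A and D copies with library totals (-0.63, -0.60) and limma (-0.61, -0.58; -0.62, -0.60 with 0.1). F1 against Anther passed for VRN1-5A with median-of-ratios scaling (-0.51), DESeq2 (-0.51) and only the 2 groups (-0.41), and for VRN1-5B with DESeq2 (-0.27); the B and D copies changed sign with library totals (0.24, 0.21) and limma (0.21, 0.19; 0.21, 0.20 with 0.1). F1 against Ovary passed for VRN1-5D with median-of-ratios (-0.40), upper-quartile (-0.43), library totals (-0.39), DESeq2 (-0.40), limma (-0.39; -0.40 with 0.1) and only the 2 groups (-0.33). F5 against Lemma passed for the B and D copies with median-of-ratios (-0.36, -0.45) and DESeq2 (-0.36, -0.45). F5 against Ovary changed sign for VRN1-5A with upper-quartile (-0.17), library totals (-0.34) and limma (-0.31; -0.31 with 0.1), and missed the threshold for B and D with upper-quartile (0.17, 0.18), library totals (0.00061, 0.011) and limma (0.020, 0.035; 0.021, 0.036 with 0.1).

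With each replicate left out in turn, the log2 fold changes that changed side or sign ran from 0.48 to 0.68 for VRN1-5A in F5 against F1, -0.39 to -0.31 for VRN1-5B in Anther against Ovary, -0.44 to -0.22 for VRN1-5A in F1 against Anther, -0.66 to -0.47 for VRN1-5A in F1 against Ovary, -0.39 to -0.19 for VRN1-5B in F5 against Lemma, -0.48 to -0.28 for VRN1-5D in F5 against Lemma, 0.14 to 0.41 for VRN1-5A in F5 against Anther, -0.10 to 0.16 for VRN1-5A in F5 against Ovary, 0.26 to 0.48 for VRN1-5B in F5 against Ovary and 0.27 to 0.45 for VRN1-5D in F5 against Ovary. VRN1-5A in F5 against Ovary changed sign without F5 replicate 1 (-0.10), Ovary replicate 1 (-0.04) and Ovary replicate 2 (-0.01). The VRN1-5B share range of group means was 5.17 points with counts (no longer past the threshold), and 4.58 to 6.79 with 1 library left out. With limma on log2(FPKM + 1), called flowering-time genes numbered 13 in F5 against F1 (26 by edgeR), 28 in Anther against Lemma (61) and 28 in Anther against Ovary (56). Genes called fell with it from 16958 to 9179 in F5 against F1, 39589 to 23484 in Anther against Lemma, 33222 to 20112 in Anther against Ovary, 23455 to 14517 in F1 against Lemma, 34504 to 20943 in F1 against Anther, 17869 to 9945 in F1 against Ovary, 19135 to 10478 in F5 against Lemma, 40315 to 23388 in F5 against Anther, and 33803 to 20963 in F5 against Ovary. Library totals moved the split of calls from 7332 higher and 9626 lower to 4873 and 13794 in F5 against F1, and from 15550 and 17069 to 26767 and 13089 in Ovary against Lemma. Of the 10 described genes most like VRN1, 10 remained with a pseudocount of 0.1 and 4 with Spearman's rho.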

Other observations

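A phytochrome gene, encoding a red-light receptor, lies on each of the 3 chromosomes that hold VRN1, outside the 3 genes on either side of it. These phytochrome genes were singled out after their values were seen. In F5 against F1 the phytochrome genes rose by 0.87 (TraesCS5A02G391300), 1.25 (TraesCS5B02G396200) and 0.83 (TraesCS5D02G401000) on the log2 scale, each past an edgeR adjusted p of 0.05, as 35.2% of all genes were, and 1 of the 3, the 5B gene, exceeded 2-fold and was called, as 24.1% of all genes were. Their mean FPKM was 5.88, 4.04 and 6.13 in F1 and 8.98, 8.05 and 9.08 in F5. In Anther the mean FPKM was 3.75, 3.41 and 1.78, the lowest of the 5 groups for each of them.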
